A study of Rattus norvegicus with 9 samples.

Results

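The regulatory T cell genes described here are 10 genes chosen by symbol: Foxp3, Il2ra, Il2rb, Ikzf2, Ikzf4, Tnfrsf18, Nt5e, Entpd1, Lrrc32 and Gpr83. They are 10 of the 26574 named genes in the deposited tables. The RNA came from CD4+ T lymphocytes in peripheral blood. The donors were SD rats, 8 to 10 weeks old, in 3 groups with 3 libraries each. The first group is labelled normal, with no disease or treatment named. The model group is read here as rats with CIA, taken to mean collagen-induced arthritis, and the combination group as CIA rats that had received a combination of compounds for 4 weeks. The series title speaks of 2 synergized compounds from Chinese herbal medicine, and the labels name neither them nor their dose or vehicle. Nothing in the labels ties a library to its own rat, so the p-values rest on variation among libraries, which may be technical. Per the file headers, the combination tables were made under sample names of another form than the other 6, and what the other form stands for is not given in the sources used here.

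Regulatory T cells are CD4+ T cells that restrain other immune cells. Their program is held by the transcription factor Foxp3, and they depend on interleukin 2, which they bind through a receptor with an alpha chain (Il2ra, CD25), a beta chain (Il2rb) and a common gamma chain. Il2ra and the other surface molecules also appear on conventional T cells after activation, and in bulk RNA fewer cells of a type and less RNA per cell cannot be told apart.

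Values are TPM, a level per length scaled to the same total in every library, summed over the transcripts of a gene. Differences are log2 fold changes of TPM + 1 from limma, with their standard error (SE). They were fitted over all 9 libraries and the 14252 genes whose mean reached 1 TPM. Assembled loci with no gene name, and the unassigned transcripts of loci with several, are counted among these 14252 genes. A gene passed the test at an adjusted p (Benjamini-Hochberg over all genes tested) under 0.05. The libraries held 7.52 to 10.1 gigabases of aligned sequence. Pairs of reads behind a gene were counted by taking 300 bases, the commonest low total in every library, as 1 pair.

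Markers of the labelled cells were present in every library. The 10 T cell identity genes in the tables summed to 3379 to 4107 TPM in normal, 2642 to 3466 in model and 3141 to 3466 in combination libraries, and Cd4 was at 76.5 TPM or more. The 3 CD4 lineage markers summed to 280.2 to 340.4 TPM in normal, 135.7 to 257.2 in model and 169.1 to 230.7 in combination libraries. By that sum every model and combination library was below every normal library, as were 14.1% and 17.8% of all genes tested. Most of the sum was Cd4. Cd40lg overlapped between combination and normal libraries (log2 fold change −0.058, limma adjusted p = 0.866). Cd4 itself was at 222.3 ± 17.3 TPM in normal, 120.7 ± 58.1 in model and 120.5 ± 22.1 in combination libraries (SD, n = 3), with log2 fold changes against normal of −0.98 and −0.89 (limma adjusted p = 0.0863 and 0.107). Other markers moved with the groups. The 7 erythroid markers in the tables summed to 60.7 to 1123 TPM in normal, 2408 to 16214 in model and 262 to 866 in combination libraries, and monocyte and platelet markers were highest in the combination. Their part in the results below was not tested.

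The promoters of 6 of the 10 members were matched by symbol in the RefSeq table of build GRCr8, each from 250 bases before to 50 bases after the start of the gene. Those of Il2rb, Ikzf4, Tnfrsf18 and Lrrc32 were not matched. The first pair is shown because Foxp3 and Il2ra varied together over the libraries, and the second because Ikzf2 and Nt5e did, and both pairs were chosen after their values were seen. The sequences run 5′ to 3′ on the strand of the gene. Capitals mark TATAAA. Foxp3 lies at chrX:17595651-17595950 on the minus strand, Il2ra at chr17:71808426-71808725 (minus), Ikzf2 at chr9:78640310-78640609 (minus) and Nt5e at chr8:98150675-98150974 (plus).
Foxp3: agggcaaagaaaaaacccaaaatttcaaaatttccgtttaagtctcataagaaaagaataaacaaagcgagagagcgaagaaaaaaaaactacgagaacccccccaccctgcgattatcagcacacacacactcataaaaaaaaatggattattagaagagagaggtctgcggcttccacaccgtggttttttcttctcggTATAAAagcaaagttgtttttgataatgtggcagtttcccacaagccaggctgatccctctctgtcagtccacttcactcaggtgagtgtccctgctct
Il2ra: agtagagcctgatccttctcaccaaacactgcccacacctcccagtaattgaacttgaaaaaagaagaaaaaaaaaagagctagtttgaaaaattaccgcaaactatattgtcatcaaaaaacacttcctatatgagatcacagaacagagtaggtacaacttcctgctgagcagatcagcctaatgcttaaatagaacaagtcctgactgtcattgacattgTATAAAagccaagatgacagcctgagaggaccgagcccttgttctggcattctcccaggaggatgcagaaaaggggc
Ikzf2: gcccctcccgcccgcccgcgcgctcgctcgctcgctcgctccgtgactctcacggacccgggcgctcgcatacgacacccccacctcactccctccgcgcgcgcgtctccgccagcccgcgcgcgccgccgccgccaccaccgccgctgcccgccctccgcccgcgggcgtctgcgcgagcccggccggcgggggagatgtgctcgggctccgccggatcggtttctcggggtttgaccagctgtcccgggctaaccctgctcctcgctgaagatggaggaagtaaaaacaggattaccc
Nt5e: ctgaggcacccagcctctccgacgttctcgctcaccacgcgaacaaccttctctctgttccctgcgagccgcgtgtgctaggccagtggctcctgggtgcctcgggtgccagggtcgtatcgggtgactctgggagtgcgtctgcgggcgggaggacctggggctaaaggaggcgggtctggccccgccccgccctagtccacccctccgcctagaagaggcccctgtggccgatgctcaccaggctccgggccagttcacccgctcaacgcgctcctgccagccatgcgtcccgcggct
The first pair each had a GC content of 42.0%, and TATAAA began 49 bases before the start of Foxp3 and 27 bases before that of Il2ra. Ikzf2 (74.3% GC) and Nt5e (69.3% GC) held no TATAAA on either strand, and the median promoter of the table had 51.7% GC. Gpr83 (64.7% GC) held TATAAA 32 bases before its start, and Entpd1 (47.0% GC) held none. Whether these letters bear on how the genes varied over the libraries was not tested. The motif was present in 14.2% of the 33365 promoters of the table. The letters GGAAAA (core of NFAT sites, in 24.7% of all promoters), TTCNNNGAA (STAT sites, 8.88%) and TGANTCA (AP-1 sites, 7.34%) were in none of the 6 windows on either strand. TGTGGT (core of Runx sites, 17.3%) was in the window of Entpd1, on the opposite strand. These matches are descriptions of letters and not sites of binding.

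**Figure D1:**
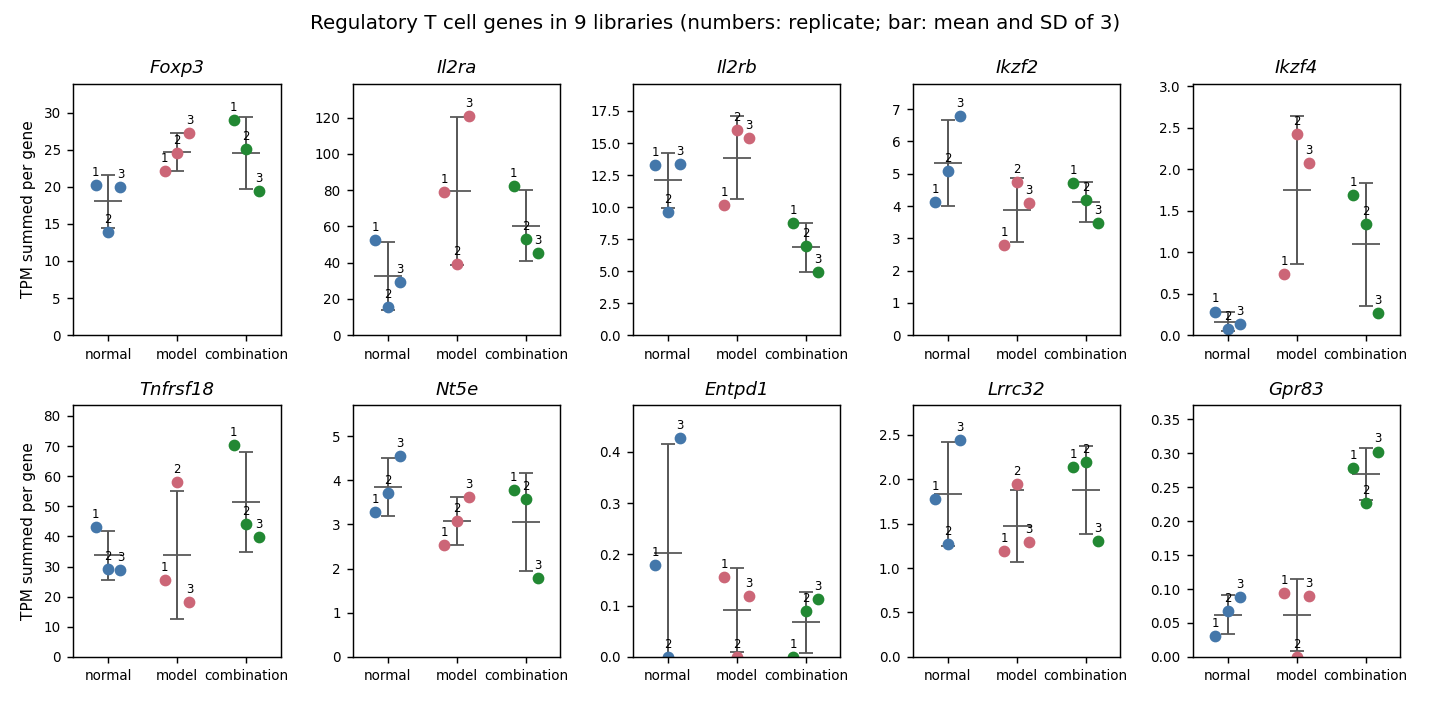
TPM summed per gene (vertical axis, from 0, scaled to each gene) in the 3 libraries of each group, for the 10 members. Points are libraries numbered by replicate, and bars are the mean and SD. Foxp3 is above all normal libraries in all 3 model libraries, and Il2rb is lowest in the 3 combination libraries.

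None of the 8 members tested passed in any of the 3 comparisons, and the other 2, Entpd1 and Gpr83, were too scarce to be tested. Of the 8 members whose mean reached 1 TPM, 0 passed between model and normal libraries (4.01% of all genes tested passed), 0 between combination and model libraries (4.15%), and 0 between combination and normal libraries (3.62%). By direction, 2.32% of all genes were called higher and 1.69% lower in the model, 2.16% higher and 1.99% lower in the combination against the model, and 2.02% higher and 1.6% lower in the combination against normal. At an unadjusted limma p under 0.05 the counts of members were 2, 1 and 2 of 8, against 26.4, 26 and 25.5% of all genes tested. The comparisons share groups and are not independent of each other. The model and normal libraries did not overlap for 2 members, Foxp3 and Ikzf4, both with the model higher. Ikzf4 reached the filter only through the groups where it was high, so its place in these counts is no support for a difference. Groups without overlap made up 32.7% of all genes tested, 18.6% with the model higher. Combination libraries lay below all model libraries for 1 member, Il2rb, against 26.7% of all genes without overlap and 13% with the combination lower. They also lay below all normal libraries for Il2rb alone of the 8, against 35.5% and 17.8%. The median log2 fold change of the 8 members was 0.017 between model and normal libraries, −0.032 between combination and model, and 0.23 between combination and normal. The medians over all genes tested were −0.0052, 0.029 and 0.041. With 8 members tested, the counts without overlap are near the shares over all genes.

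By median TPM over the 9 libraries, Il2ra stood highest (52.8), followed by Tnfrsf18 (39.6), Foxp3 (22.1), Il2rb (10.2), Ikzf2 (4.20), Nt5e (3.58), Lrrc32 (1.78), Ikzf4 (0.738), Entpd1 (0.112) and Gpr83 (0.0898). This order depends on the lengths of the assembled transcripts. By the median coverage of the exons of 1 reference transcript, on the TPM scale, Foxp3 stood highest (89.0), followed by Il2ra (55.1), Tnfrsf18 (37.7) and Il2rb (11.3). The TPM ranges of Il2ra (15.5 to 120.7 TPM) and Tnfrsf18 (18.2 to 70.3) overlapped each other and that of Foxp3 (13.9 to 29.0). Ikzf2 (2.78 to 6.78 TPM) and Nt5e (1.78 to 4.56) overlapped, as did Lrrc32 (1.19 to 2.44) and Ikzf4 (0.0683 to 2.43).

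Foxp3, the defining transcription factor of regulatory T cells, is on the minus strand of chromosome X (15753175 to 15774069, rn6). It was at 20.3, 13.9 and 19.9 TPM in normal libraries 1 to 3, at 22.1, 24.6 and 27.3 in the model and at 29.0, 25.2 and 19.4 in the combination. All 3 model libraries were above all normal libraries, while the combination libraries overlapped both groups. The log2 fold change between model and normal libraries was 0.44 (SE 0.20, 95% confidence interval −0.016 to 0.91, limma adjusted p = 0.202). Between combination and model libraries it was −0.021 (SE 0.20, −0.48 to 0.44, limma adjusted p = 0.965), and between combination and normal libraries 0.42 (SE 0.20, −0.037 to 0.88, limma adjusted p = 0.230). The value between model and normal libraries was 0.028 with reference transcripts only, 0.28 without normal 2 and 0.72 with scaling to T cell identity genes (limma adjusted p = 0.960, 0.489 and 0.0608). The means were 18.0 ± 3.59 TPM in normal, 24.7 ± 2.59 in model and 24.5 ± 4.83 in combination libraries (SD, n = 3).

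The exons of Foxp3 were covered more deeply than its summed TPM shows. Assembled transcripts carried 86.8 to 94.6% of the Foxp3 TPM, and the longest had 9172 bases against 1522 in the 12-exon reference transcript. The median coverage of those 12 exons, on the TPM scale, was 84.1, 55.8 and 81.8 in normal libraries, 91.3, 101.8 and 99.0 in the model and 105.5, 89.0 and 62.6 in the combination. Here too the model libraries were above all normal libraries, and combination 3 lay among the normal libraries. The 5547 bases of assembled sequence upstream of the reference transcript were covered at 1.88 to 5.46% of the exon median. The value of exon 1 was 3.48 to 7.90 and that of exon 12 was 14.3 to 30.6, below each of exons 2 to 11 in every library. Each value sums the mean coverage of all exons of the gene that hold the middle of the reference exon. Other transcripts run beyond both ends of the reference transcript. The values of exons 1 and 12 can therefore average over sequence outside these exons, and are not a measured drop in coverage. In 9 of the 12 exons every model library was above every normal library.

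**Figure D2:**
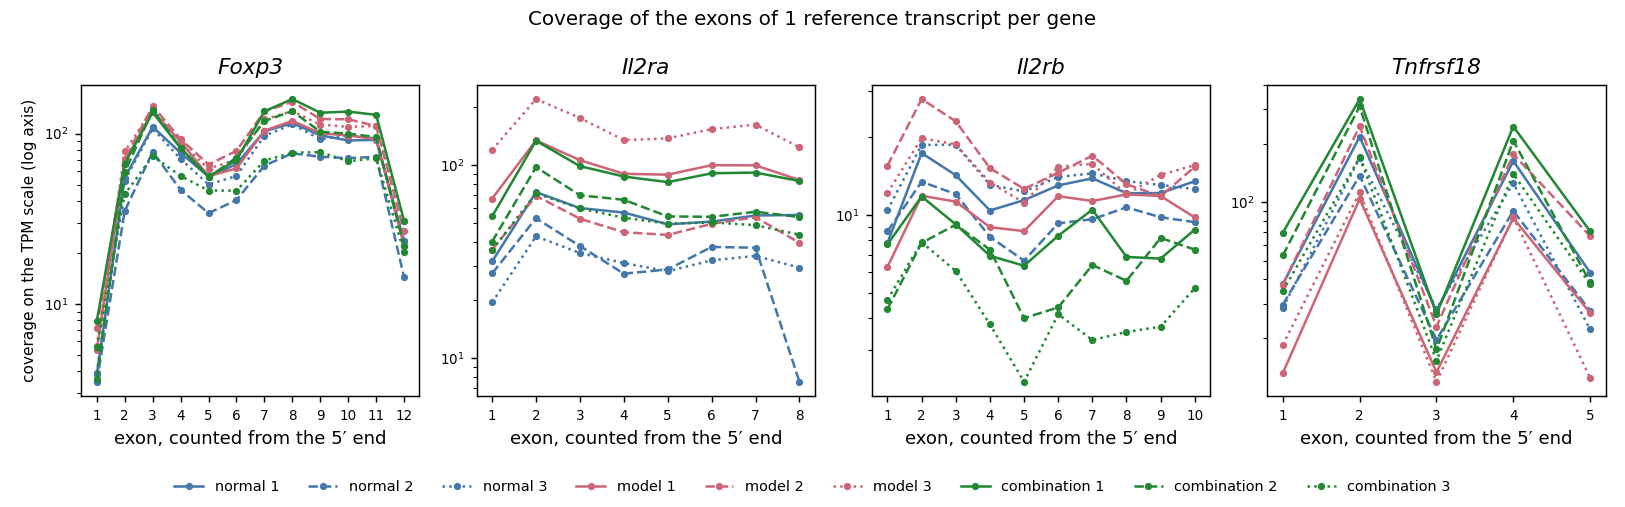
Coverage on the TPM scale (log axis) of each exon of 1 reference transcript of Foxp3, Il2ra, Il2rb and Tnfrsf18, counted from the 5′ end, with 1 line per library (colour: group, line type: replicate). In Il2ra the line of normal 2 drops to 7.56 at exon 8, and in Il2rb every combination line is below every model line in 9 of 10 exons. Values can average over a longer assembled exon that holds the middle of an exon.

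The assembled transcripts that carried the Foxp3 TPM differed between libraries. The 1 with 13 exons and 7726 bases held 7.13, 7.19 and 7.28% of the gene's TPM in normal libraries, 23.8, 6.99 and 45.3% in the model and 34.4, 69.9 and 75.7% in the combination. The combination libraries lay above all normal libraries, and model 2 was at the level of the normal libraries. In TPM this 13-exon transcript was at 1.45, 1.00 and 1.45 in normal, 5.26, 1.72 and 12.4 in model and 9.98, 17.6 and 14.7 in combination libraries. Its log2 fold change between combination and normal libraries was 2.69 (SE 0.52, limma adjusted p = 0.0969 over 36340 transcripts), so it did not pass. Of all transcripts, 0.173% passed in that comparison, 0.201% between model and normal and 0.127% between combination and model libraries, and 0 transcripts of Foxp3 did. The transcript with 15 exons and 9012 bases was at 14.2, 7.19 and 9.71 TPM in normal, 8.40, 17.4 and 5.18 in model and 9.97, 1.04 and 0.468 in combination libraries. The 13-exon transcript runs on without a break through upstream sequence where the 15-exon one has introns, and that sequence is the thinly covered part. Exons of Ccdc22 overlap those of Foxp3 on the other strand, and the labels do not say that the library kit keeps strand, so reads of that overlap cannot be told apart.

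**Figure D3:**
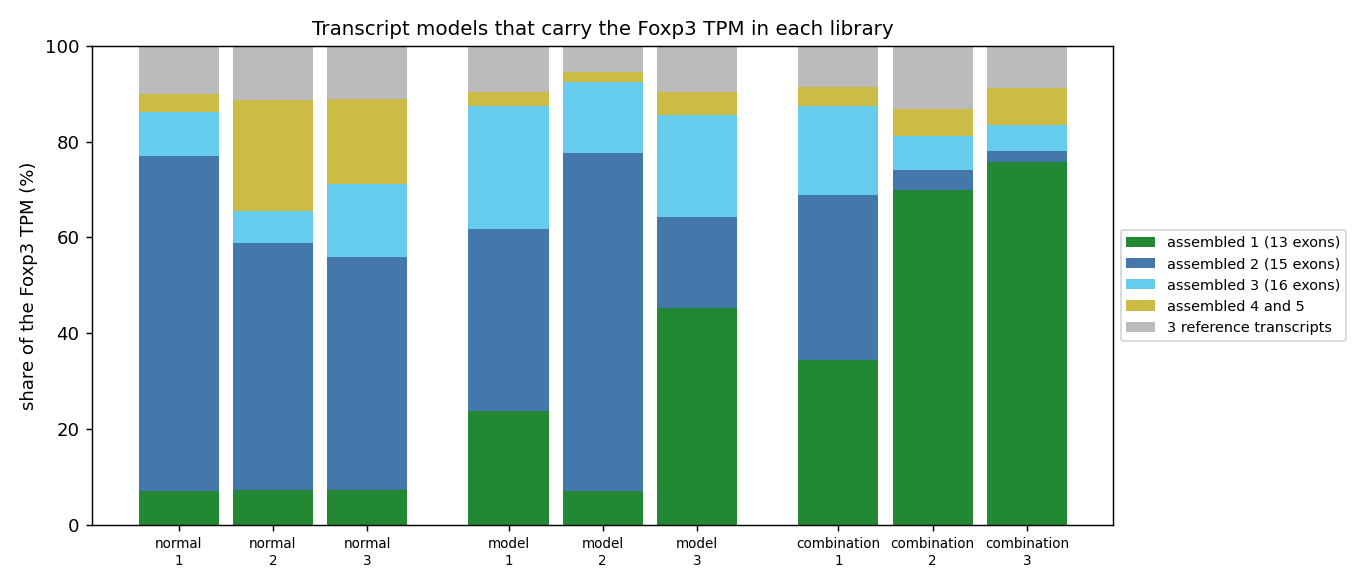
Share of the Foxp3 TPM (vertical axis, percent) carried by each transcript in each of the 9 libraries. The 13-exon assembled transcript holds 7.13 to 7.28% in the normal libraries and 34.4 to 75.7% in the combination libraries.

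Ikzf2 (Helios) and Ikzf4 (Eos) are zinc finger factors of the Ikaros family, and Eos acts as a corepressor with Foxp3. Ikzf4 (chromosome 7, 3056529 to 3074359, minus strand) was at 0.285, 0.0683 and 0.134 TPM in normal libraries, 0.738, 2.43 and 2.08 in the model and 1.69, 1.34 and 0.263 in the combination. Every model library was above every normal library, and combination 3 was within the normal range. The values rested on 32, 9 and 19 pairs of reads in normal, 114, 206 and 186 in model and 111, 103 and 24 in combination libraries. The log2 fold change between model and normal libraries was 1.19 (SE 0.34, 0.42 to 1.96), with an unadjusted limma p of 0.00676 and an adjusted p of 0.0786. It moved with the pseudocount, to 2.75 at 0.1 and 0.38 at 5 (limma adjusted p = 0.0716 and 0.0891). It passed with aligned bases (1.94, limma adjusted p = 0.0276) and median exon coverage (1.39, 0.0473), both added after the data were seen. It also passed with scaling to T cell identity genes (1.27, limma adjusted p = 0.0365), which moved the median of all genes to 0.24. In those fits 10.2, 6.46 and 14.1% of all genes passed, in that order, against 4.01% in the main fit. Ikzf4 did not pass without a filter (limma adjusted p = 0.151), with the replicate block (0.127) or without normal 2 (0.206). Between combination and normal libraries the value was 0.78 (SE 0.34, adjusted p = 0.189). The mean of Ikzf4 over the 9 libraries, 1.00 TPM, lay just inside the filter, which it reached only through the model and combination groups. Without model 2 or model 3 it was below the filter and not fitted, so none of these calls is support for a difference.

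Ikzf2 (chromosome 9, 76621230 to 76770258, minus strand) was at 4.13, 5.09 and 6.78 TPM in normal, 2.78, 4.74 and 4.08 in model and 4.71, 4.20 and 3.46 in combination libraries. All 3 groups overlapped. Its log2 fold change was −0.38 between model and normal libraries (SE 0.23, limma adjusted p = 0.308) and 0.088 between combination and model (SE 0.23, adjusted p = 0.843). Of the 5 genes of the Ikaros family, 0 passed the limma test in any comparison.

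The chains of the interleukin 2 receptor differed from each other in pattern. Il2rb, the beta chain shared by the receptors of interleukins 2 and 15, was at 13.3, 9.63 and 13.4 TPM in normal libraries, 10.2, 16.03 and 15.4 in the model and 8.72, 6.96 and 4.90 in the combination. The 3 combination libraries were the 3 lowest of all 9. The gene is on chromosome 7 (119701251 to 119716238, minus strand), has reference transcripts only, and rested on 209 to 725 pairs of reads. Its log2 fold change between combination and model libraries was −0.92 (SE 0.25, −1.48 to −0.37), with an unadjusted limma p of 0.00447 and an adjusted p of 0.0647, short of the threshold. Between combination and normal libraries it was −0.75 (SE 0.25, −1.31 to −0.19, limma adjusted p = 0.107), and between model and normal 0.17 (SE 0.25, limma adjusted p = 0.691).

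The call for Il2rb depended on how the values were scaled. Between combination and model libraries it passed with FPKM (−0.84, limma adjusted p = 0.0325), with median-ratio scaling (−0.98, adjusted p = 0.0213) and with aligned bases (−0.93, adjusted p = 0.0296). With each library left out in turn it was −1.12 to −0.73 and did not pass (limma adjusted p = 0.0642 to 0.163). The difference ran along the gene: in 9 of its 10 exons every combination library was below every model library, and in 9 of 10 below every normal library. Beta chain RNA is also abundant in cytotoxic and NK cells. The summed TPM of 12 markers of those cells, 7 of them with a mean of at least 1, was 101.5 to 163.1 in normal, 51.7 to 75.0 in model and 82.5 to 110.0 in combination libraries. That sum was higher in every combination library than in any model library, and its combination and normal ranges overlapped. Against normal, Klrd1 and Klrk1 were lower in every combination library and Klrb1a was higher, while the other tested markers of the list overlapped. Of all genes tested, 17.8% had the combination below normal and 17.7% above. No marker of the list was at 0 in all libraries, and Ncr1 was at 0 in 5 and at most 0.0891 TPM. The part of these cells in the values of Il2rb was not tested.

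Il2ra, the alpha chain that gives the receptor its high affinity (chromosome 17, 70499083 to 70548071, minus strand), was the most variable of the abundant members. It was at 52.8, 15.5 and 29.4 TPM in normal libraries, 79.2, 39.0 and 120.7 in the model and 82.5, 52.8 and 45.5 in the combination. Model 2 lay within the normal range, and the other 2 model libraries were above it. The log2 fold change between model and normal libraries was 1.29 (SE 0.49, 0.18 to 2.40), with an unadjusted limma p of 0.0275 and an adjusted p of 0.141. Without model 2 it was 1.72 and passed (limma adjusted p = 0.0406), as did 18.8% of all genes in that fit, against 4.01% in the main fit. The value of Il2ra was 0.85 without normal 2 and 0.92 without model 3 (limma adjusted p = 0.348 and 0.373). Between combination and model libraries it was −0.30 (SE 0.49, −1.41 to 0.81, adjusted p = 0.743), and between combination and normal 0.99 (SE 0.49, adjusted p = 0.243).

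In normal 2 the coverage of Il2ra was uneven along the gene. The last exon, exon 8 with 2273 bases, was covered at 7.56 on the TPM scale, and the other 7 exons at 27.4 to 53.2. In the other 8 libraries exon 8 was covered at 29.5 to 123.8. The median over exons 1 to 7 was 54.9, 37.4 and 32.2 in normal libraries, 99.9, 49.7 and 153.9 in the model and 90.9, 57.4 and 50.6 in the combination. On that measure normal 2 lay between the other normal libraries, and model 2 was below normal 1.

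The rest of the interleukin 2 pathway was read from a list of 13 genes. Il2 itself, the ligand, was at 0.0485 to 0.702 TPM. Il2rg, the common gamma chain, had means of 269.3 ± 23.3 TPM in normal, 274.6 ± 51.9 in model and 289.0 ± 67.4 in combination libraries (SD, n = 3) and did not pass in any comparison. Of 11 list genes tested, 1 rose in the model against normal, 0 rose and 2 fell in the combination against the model, and 0 rose and 1 fell in the combination against normal. Over all genes tested, 2.32% rose in the model, 1.99% fell against the model and 1.6% fell against normal. Cish, a feedback inhibitor induced by cytokines through STAT5, was at 0.895 ± 0.224 TPM in normal, 4.30 ± 0.921 in model and 1.33 ± 0.601 in combination libraries (SD, n = 3). It rose by 1.47 in the model (SE 0.24, limma adjusted p = 0.0248) and was lower by 1.21 in the combination than in the model (log2 fold change −1.21, limma adjusted p = 0.0369). Stat5a and Stat5b, which carry the signal to the nucleus, did not pass in any comparison. The combination mean of Stat5a was 16.2 ± 3.68 TPM and that of Stat5b 158.0 ± 37.7 (SD, n = 3).

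Jak3, the kinase bound to the common gamma chain, fell by its named transcripts, but not once the assembled transcripts of its locus were assigned. Under its name it was at 58.3, 63.3 and 63.8 TPM in normal, 54.3, 59.8 and 60.6 in model and 24.8, 19.5 and 16.6 in combination libraries. The log2 fold change was −1.49 against the model (limma adjusted p = 0.0106) and −1.58 against normal (limma adjusted p = 0.00797). Jak3 shares its assembled locus with Insl3, so the assembled transcripts there carry no single name. When they were given to the name with the largest exon overlap, Jak3 was at 121.3, 106.9 and 104.5 TPM in normal, 89.0, 122.7 and 97.1 in model and 131.0, 112.4 and 75.4 in combination libraries. The values then were 0.022 (limma adjusted p = 0.963) and −0.095 (limma adjusted p = 0.816), so both calls ended. The log2 fold changes of the 8 members tested were the same under that assignment.

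Tnfrsf18 (GITR) is a costimulatory receptor of the TNF receptor family that regulatory T cells carry at high level. It lies on chromosome 5 (173459364 to 173467708, plus strand) and was at 43.1, 29.3 and 28.8 TPM in normal, 25.4, 58.0 and 18.2 in model and 70.3, 44.2 and 39.6 in combination libraries. Model 2 stood apart from the other model libraries, and no pair of groups was free of overlap. The log2 fold change between combination and model libraries was 0.71 (SE 0.40, −0.18 to 1.60, limma adjusted p = 0.290). Without model 2 it was 1.17 and passed (limma adjusted p = 0.0477), as did 8.48% of all genes in that fit, against 4.15% in the main fit. The value of Tnfrsf18 was 0.36 without model 3 and 0.47 without combination 1 (limma adjusted p = 0.618 and 0.564). With reference transcripts only it was −0.98 (limma adjusted p = 0.587). Between model and normal libraries it was −0.14 (SE 0.40, adjusted p = 0.856). Its TPM was spread over 8 transcripts of 1217 to 6673 bases. Exons 2 and 4 together were covered at 183.2, 107.7 and 141.6 on the TPM scale in normal, 90.8, 202.5 and 94.4 in model and 280.5, 246.3 and 151.2 in combination libraries. Exons 1, 3 and 5 together were at 15.6 to 65.8. These values can average over longer assembled exons that hold the middle of an exon, so the contrast may reflect the lengths of the assembled exons.

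The ligand Tnfsf18 was listed at 0 TPM in 7 libraries and at 0.0342 and 0.0440 in combination 1 and 3. Of 7 tested ligands and signalling partners of Tnfrsf18, 1 rose in the model (2.32% of all genes did) and 1 fell in the combination against the model (1.99%). Both calls were Traf2, an adaptor of TNF receptors. Traf2 was at 113.0 ± 9.57 TPM in normal, 214.4 ± 16.9 in model and 137.9 ± 16.7 in combination libraries (SD, n = 3). Its log2 fold changes were 0.92 (limma adjusted p = 0.0217) and −0.64 (limma adjusted p = 0.0464).

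Nt5e (CD73) and Entpd1 (CD39) are the ectoenzymes that turn extracellular ATP into adenosine. Nt5e (chromosome 8, 95968652 to 96012696, plus strand) was at 3.28, 3.71 and 4.56 TPM in normal, 2.54, 3.07 and 3.62 in model and 3.79, 3.58 and 1.78 in combination libraries. The groups overlapped, and the log2 fold changes were −0.25 between model and normal (SE 0.24, limma adjusted p = 0.536) and −0.042 between combination and model libraries (SE 0.24, limma adjusted p = 0.939). Entpd1 (chromosome 1, 259739955 to 259819494, plus strand) was below the filter. It was at 0.179, 0 and 0.427 TPM in normal, 0.156, 0 and 0.119 in model and 0, 0.0892 and 0.112 in combination libraries, on at most 38 pairs of reads. The 38 pairs were in normal 3 and 15 each in normal 1 and model 1, and a count of 0 pairs allows up to 3, for counting error only. Fitted without a filter, its log2 fold changes were −0.13 between model and normal (SE 0.12, limma adjusted p = 0.754) and −0.031 between combination and model libraries (SE 0.12, limma adjusted p = 0.889). Monocytes also carry Entpd1. The 10 monocyte and macrophage markers in the tables, 9 of them with a mean of at least 1 and none at 0 in all libraries, summed to 79.4 to 237.5 TPM in normal, 115.6 to 232.0 in model and 395.5 to 777.0 in combination libraries. The part of monocytes in the values of Entpd1 was not tested.

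Of the 10 tested genes of the purine pathway, 0 passed the limma test in any comparison. Adora2a, the adenosine receptor of T cells, was at 15.2, 10.6 and 15.7 TPM in normal, 21.1, 40.4 and 29.0 in model and 41.8, 56.3 and 15.8 in combination libraries. Every model library was above every normal library, as in 18.6% of all genes tested, and so was every combination library, as in 17.7%. Combination 3 was barely above normal 3 (15.80 against 15.74 TPM). The log2 fold changes of Adora2a against normal were 1.04 (SE 0.42, limma adjusted p = 0.160) and 1.24 (SE 0.42, limma adjusted p = 0.117).

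Lrrc32 (GARP) holds latent TGF-beta on the surface of activated regulatory T cells. It lies on chromosome 1 (163445527 to 163457424, plus strand) and was at 1.78, 1.28 and 2.44 TPM in normal, 1.19, 1.94 and 1.297 in model and 2.14, 2.19 and 1.305 in combination libraries. The groups overlapped, and its log2 fold changes were −0.19 between model and normal (SE 0.23, limma adjusted p = 0.640) and 0.21 between combination and model libraries (SE 0.23, limma adjusted p = 0.599). An assembled transcript of its locus also carries another name and was not counted. Platelets carry Lrrc32 as well. The 10 platelet and megakaryocyte markers, 6 of them with a mean of at least 1 and none at 0 in all libraries, summed to 15.7 to 38.7 TPM in normal, 24.4 to 44.2 in model and 90.3 to 142.7 in combination libraries. The part of platelet RNA in the values of Lrrc32 was not tested.

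Among 6 tested genes of TGF-beta activation and reception, 1 rose in the model and 1 fell in the combination against the model. Over all genes tested these shares were 2.32% and 1.99%. Furin, a protease that cleaves the TGF-beta precursor, rose from 30.3 ± 1.09 TPM in normal to 61.3 ± 10.1 in model libraries (SD, n = 3, log2 fold change 0.98, limma adjusted p = 0.0465). Tgfb1, the ligand, was at 62.9 ± 12.1 TPM in normal, 132.6 ± 49.8 in model and 53.5 ± 11.8 in combination libraries (SD, n = 3). It fell by 1.26 on the log2 scale in the combination against the model (limma adjusted p = 0.0451), and it also stands in the list of suppressive molecules.

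Gpr83, a receptor coupled to G proteins and enriched in regulatory T cells of mice, was the scarcest member by median. It lies on chromosome 8 (13365583 to 13376070, plus strand) and was at 0.0305, 0.0678 and 0.0876 TPM in normal, 0.0939, 0 and 0.0898 in model and 0.278, 0.227 and 0.303 in combination libraries. All 3 combination libraries were above the other 6. Among the 14252 genes tested, which leave out Gpr83, 13.7% had the combination above the model and 17.7% above normal. The values of Gpr83 rested on 2, 4 and 6 pairs of reads in normal, 7, 0 and 6 in model and 14, 13 and 18 in combination libraries. Gpr83 was below the filter. Fitted without a filter, its log2 fold change was 0.26 against the model (SE 0.044, limma adjusted p = 0.0487) and 0.26 against normal libraries (SE 0.044, limma adjusted p = 0.0516). In those fits 0.898% and 0.657% of all 28631 genes passed. On log2(TPM + 1) values so near 0 are compressed, and so is their SE, so the small SE is no sign of precision. Genes with 1 transcript and with more than 0 but fewer than 1500 aligned bases numbered 7287 in combination 1, 3278 in combination 2 and 7762 in combination 3. In the normal and model libraries they numbered 3066 to 3533. Genes with 0 bases are not in these counts. The part of that excess of weakly covered genes in the values of Gpr83 was not tested.

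**Figure D4:**
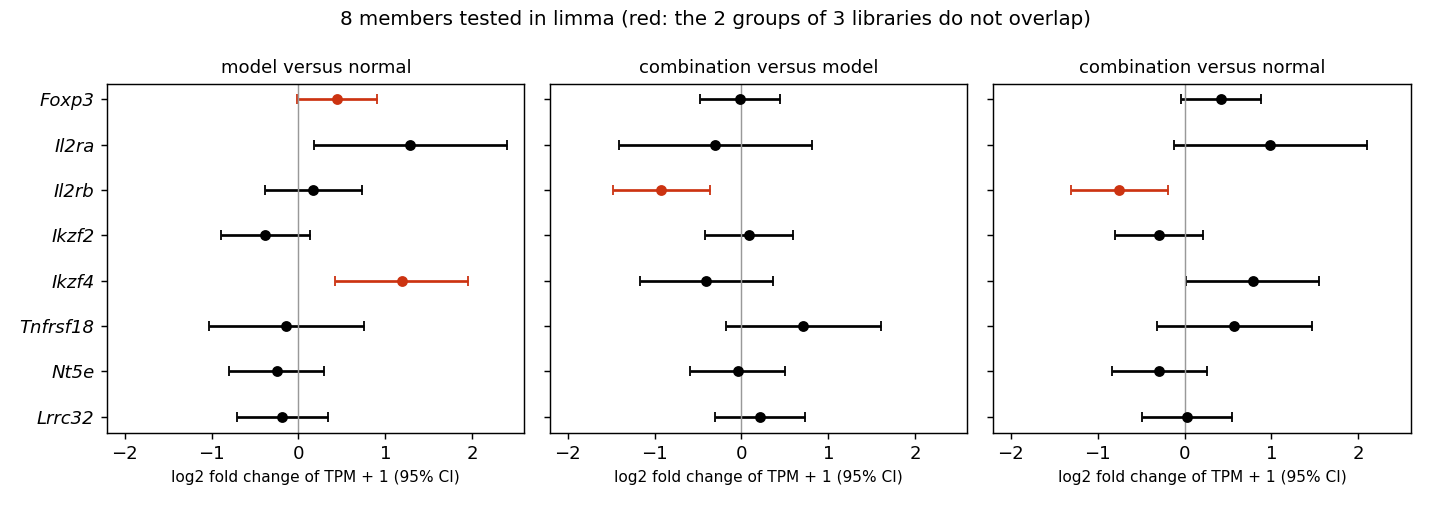
Log2 fold changes of TPM + 1 with 95% confidence intervals (horizontal axis) for the 8 members tested, in each of the 3 comparisons. Red marks members whose groups of 3 libraries do not overlap: Foxp3 and Ikzf4 between model and normal, and Il2rb in both comparisons of the combination.

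Further molecules of regulatory T cells were read from lists chosen for the pathway. Of 28 tested suppressive and surface molecules, 1 rose and 1 fell in the model, 1 rose and 3 fell in the combination against the model, and 0 rose and 3 fell in the combination against normal. Over all genes tested, 2.32% rose and 1.69% fell, 2.16% rose and 1.99% fell, and 2.02% rose and 1.6% fell, in that order. Ctla4, the inhibitory receptor that regulatory T cells carry constantly, was at 45.2, 45.1 and 47.6 TPM in normal, 20.5, 8.05 and 8.42 in model and 30.8, 28.0 and 32.4 in combination libraries. The 3 groups did not overlap. Taken singly, 14.1% of all genes tested had the model below normal, 13.7% the combination above the model and 17.8% the combination below normal. Ctla4 fell by 1.94 on the log2 scale in the model (SE 0.30, limma adjusted p = 0.0217). It rose by 1.36 in the combination against the model (SE 0.30, limma adjusted p = 0.0460). In these comparisons Foxp3 had 0.44 and −0.021. Areg, an epidermal growth factor family ligand linked to tissue repair, rose by 2.06 in the model (limma adjusted p = 0.0414). It fell by 1.90 in the combination against the model (limma adjusted p = 0.0494). Its means were 0.479 TPM in normal, 6.26 in model and 0.655 in combination libraries. Areg reached the filter only through the model group, so these calls are no support for a difference. Ccr4, a chemokine receptor, fell by 1.24 in the combination against the model (limma adjusted p = 0.0266). Cd69, Cd44 and Lgals1, which mark activated or memory T cells, fell by 1.01, 1.09 and 1.20 in the combination against normal (limma adjusted p = 0.0458, 0.0388 and 0.0440). Il10, a suppressive cytokine, was at 0.209 to 2.51 TPM and did not pass in any comparison.

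Of 24 partner transcription factors of Foxp3, 2 rose in the model (2.32% of all genes did) and 0 passed in the other 2 comparisons. They were Irf4 (1.37, SE 0.31, limma adjusted p = 0.0460) and Rela (1.39, SE 0.23, limma adjusted p = 0.0248), which act in activated T cells. Irf4 had means of 0.943 TPM in normal, 4.345 in model and 1.01 in combination libraries. Outside the model group Irf4 lay at the filter of 1 TPM, so its call is no support for a difference. Of 17 tested regulators of Foxp3 protein and chromatin, 1 rose in the model (2.32% of all genes did). In the combination 1 fell against the model (1.99% of all genes) and 2 fell against normal (1.6%). Kat5, an acetyltransferase that acts on Foxp3, rose by 0.75 in the model (limma adjusted p = 0.0490) and fell by 0.75 in the combination against the model (limma adjusted p = 0.0494). Dnmt1, the maintenance DNA methyltransferase, fell by 1.24 in the combination against normal (limma adjusted p = 0.0299), and Stub1, a ubiquitin ligase, by 1.35 (limma adjusted p = 0.0368). With exon overlap assignment the value of Stub1, which also shares a locus, was −0.73 (limma adjusted p = 0.04995).

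The median log2 fold changes of the lists stood beside −0.0052, 0.029 and 0.041 over all genes, in the order model against normal, combination against model and combination against normal. They were 0.12, −0.054 and 0.21 for the interleukin 2 pathway, and 0.32, −0.25 and 0.13 for the partners of Foxp3. For the protein and chromatin regulators they were 0.081, −0.17 and −0.019, and for the suppressive and surface molecules 0.31, −0.29 and −0.20. For TGF-beta they were 0.78, −0.59 and 0.22, for the purine pathway 0.19, −0.21 and −0.22, for the partners of Tnfrsf18 0.67, −0.084 and 0.30, and for the Ikaros family 0.58, −0.34 and −0.096. The lists gave 22 calls over 16 genes, and 0 of them held under every alternative run. Beside the 2 calls of Jak3, each of the other 20 ended in 3 to 8 of the 9 fits that left out 1 library, with adjusted p up to 0.155 in limma. Leaving out normal 1, 2 or 3 ended 18, 18 and 19 calls, model 1, 2 or 3 ended 12, 1 and 16, and combination 1, 2 or 3 ended 15, 15 and 11.

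Over the 9 libraries the members split by how they varied with Foxp3, given here as Pearson correlations of log2(TPM + 1) with Spearman's rho. Among the members only, Ikzf4 (r = 0.85, rho = 0.87) and Il2ra (r = 0.84, rho = 0.82) stood closest to it. The other members had r of 0.35 (Lrrc32), 0.28 (Tnfrsf18), 0.25 (Gpr83), 0.17 (Il2rb), 0.10 (Nt5e), −0.12 (Entpd1) and −0.17 (Ikzf2). Among the other pairs of tested members, the largest r was 0.78, between Ikzf2 and Nt5e, followed by 0.67 between Ikzf2 and Lrrc32. The 5 genes most like Foxp3 among 7976 with a mean of at least 5 TPM were Gch1 (r = 0.96), Pom121 (0.95), Srrm1 (0.95), Nfkbid (0.94) and Hdgfrp3 (0.94). Nfkbid, a nuclear inhibitor-like regulator of NF-kB, was at 4.30, 1.82 and 3.31 TPM in normal, 4.31, 5.78 and 11.1 in model and 9.26, 6.42 and 2.73 in combination libraries. Of the 7976 genes compared, Il2ra ranked 143 by likeness to Foxp3, Tnfrsf18 3675 and Il2rb 4269. Many genes outside the members thus varied with Foxp3 more closely than Il2ra did. The other members were too scarce for that ranking. Normal 2 includes the thinly covered exon 8 of Il2ra, and Ikzf4 rested on 9 to 206 pairs of reads. Their part in these correlations was not tested. The libraries within a group share their treatment, so the correlations describe 9 points in 3 groups.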

How the data were processed

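RNA sequencing of 9 libraries was deposited as 1 StringTie table per library. Per the file headers, the authors ran StringTie 1.3.3b on a merged set of transcripts. The submitters' processing notes name HISAT2, bcl2fastq and the rat build rn6, with no role given. The deposited values per transcript are TPM, FPKM and coverage (mean depth over each transcript or exon), estimated by the authors from aligned reads and not read counts. Per the labels' protocols, RNA was extracted with Trizol and libraries were made with a NEBNext Ultra kit. TPM has the same total in each library, so a few abundant genes can move all others.

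TPM was summed per gene over its reference transcripts and over assembled transcripts (39026 of 80092) of loci with 1 gene name. Assembled transcripts of 844 loci with several names, 3.71 to 4.60% of TPM, were not assigned to a name. They were kept as 1 unit per locus, and loci with no name also formed units. Differences were fitted on log2(TPM + 1), which understates the change of low genes, with limma 3.58.1 in R 4.3.3, 1 coefficient per group over all 9 libraries and an intensity trend. Residual degrees of freedom were 6 and prior ones 3.21. Of 34731 units in all, 26574 were named genes, and 28631 units were above 0 TPM in at least 1 library. Units with a mean under 1 TPM were left out. The 14252 units tested are called all genes here. Tables and plots used Python 3.11.15, pandas 2.3.3, numpy 2.4.6 and matplotlib 3.10.9. Data were simulated for model against normal libraries with 200 of 14252 genes changed, over 3 rounds. The test called 42.3% of 2-fold and 87.7% of 4-fold changes, and 6.27% of calls were false. The changed genes were drawn from the more abundant ones, and the noise was independent for each gene. These shares therefore do not cover genes as scarce as Ikzf4 and Lrrc32, or shifts of a whole library.

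Depth was 7.52 to 10.1 gigabases per library, of which 86.7 to 89.0% lay in transcripts. The read length is not given in the sources used here, so pairs of reads are estimates that cover counting error only.

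The members and lists were chosen with earlier results of these data known. Named genes are all members, list genes past the threshold in any comparison, 9 fixed genes of the pathway (Il2, Il2rg, Ctla4, Tgfb1, Il10, Tnfsf18, Adora2a, Stat5a and Stat5b) and the 5 genes most like Foxp3. Alternatives covered the pseudocount, filter, unit, scaling, gene sum, samples, weights, replicate block and each library left out. Aligned bases, median exon coverage, exon overlap assignment and the fit of single transcripts were added after the data were seen.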

Additional observations from a re-analysis of the deposited data

How the results depend on the processing

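Under 26 alternative settings the members gave 586 values, of which 543 kept their direction and side of the threshold, 18 came to pass it and 25 changed sign, none of these past the threshold. The count of members past the threshold, 0 in each comparison, became 1 for model against normal with T cell identity scaling, aligned bases and median exon coverage (Ikzf4 each time), and ranged from 0 to 1 with 1 library left out. With those scalings and readouts 14.1, 10.2 and 6.46% of all genes passed, in that order, against 4.01% in the main fit. For combination against model it became 1 with no filter (Gpr83), and 1 with FPKM, median-ratio scaling, T cell identity scaling, haemoglobin, mitochondrial and ribosomal protein genes left out, array weights, aligned bases and median exon coverage (Il2rb each time), and ranged from 0 to 1 with 1 library left out. For combination against normal the count became 1 with FPKM, median-ratio scaling and aligned bases (Il2rb), where 9.42, 9.94 and 10.9% of all genes passed. It became 3 with array weights, namely Foxp3 (0.49, limma adjusted p = 0.0263), Il2rb (−0.69, 0.0104) and Ikzf4 (0.98, 0.00722). With array weights 38.0% of all genes passed in that comparison, so 3 of 8 members is near that share. The count of members stayed at 0 with each library left out. The cause was not tested.

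Values that changed sign were as follows. For model against normal, Tnfrsf18 was 0.14 with T cell identity scaling, 1.49 with reference transcripts only, and 0.0474 and 0.209 without normal 1 and model 3, in a range of −0.60 to 0.21 with 1 library left out. Lrrc32 was 0.27 with median exon coverage. For combination against model, Foxp3 was 0.00673 with FPKM, 0.0707 without haemoglobin, mitochondrial and ribosomal protein genes, 0.21 with reference transcripts only, 0.0701 with array weights, and 0.0517 and 0.131 without model 3 and combination 3, in a range of −0.15 to 0.13 with 1 library left out. Nt5e was 0.0240 without those abundant genes, 0.197 with array weights, and 0.0526 and 0.210 without model 3 and combination 3, in a range of −0.18 to 0.21. Tnfrsf18 was −0.98 with reference transcripts only, Ikzf4 0.0163 with array weights, Ikzf2 −0.0830 without model 1 (range to 0.22), Il2ra 0.0677 without model 3 (range from −0.74), Lrrc32 −0.15 with median exon coverage and Jak3 0.0223 with exon overlap assignment. For combination against normal, Lrrc32 was −0.00353 with FPKM, −0.00947 with median-ratio scaling, and −0.118, −0.0411 and −0.0530 without normal 2, combination 1 and combination 2, in a range of −0.12 to 0.18.

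Over all genes the main counts of 572, 592 and 516 calls moved to between 18 and 2682, 42 and 1212, and 23 and 1490 with 1 library left out, and to between 83 and 2654, 12 and 2757, and 21 and 5409 under the other settings. Higher calls made up 57.9, 52.0 and 55.8% of calls, against 88.3, 33.3 and 72.5% with T cell identity scaling, 59.2, 38.0 and 42.2% with median-ratio scaling, and 50, 65.5 and 63.0% without the abundant genes. The median of all genes moved to 0.24 and 0.20 against normal with T cell identity scaling, and to 0.13 for combination against model without the abundant genes.

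With the replicate number as a block, 0 members passed in each comparison and 87, 12 and 21 of all genes did. Libraries with the same number correlated at −0.12 to 0.066 and 2 of 9 correlated best with their own number, so the numbers were not taken to pair the libraries.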

Other observations

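Gps2, a subunit of a corepressor complex listed with the chromatin regulators, was at 104.3 TPM in normal 1 and 93.8 in combination 3, and at 0.0147 to 0.104 in the other 7 libraries. Its locus also carries another gene name, so its assembled transcripts were not assigned. It was singled out after its values were seen.

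The assembled transcript of Il2ra held 16.5, 33.1 and 12.8% of the gene's TPM in normal libraries, 29.3, 30.1 and 31.7% in the model and 16.5, 22.5 and 20.0% in the combination. Its log2 fold change between model and normal libraries was 1.81 (SE 0.43, limma adjusted p = 0.110), which did not pass.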
